A study of Mus musculus with 12 samples.

Results

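The dystrophin glycoprotein complex genes described here are Dmd, Utrn, Dag1, Sgca, Sgcb, Sgcd, Dtna and Sspn, chosen by symbol as components or close relatives of the complex. All 8 were found among the 12752 genes of a poly-A RNA sequencing count table from mouse tibialis anterior, a fast-fibre muscle of the lower leg. The study overexpressed Dux, a transcription factor of the early embryo and the mouse relative of human DUX4, whose misexpression in muscle is linked to facioscapulohumeral muscular dystrophy. It asked how a doxycycline-inducible Dux transgene changes gene expression in muscle.

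Each of the 4 groups held 3 libraries from male C57BL/6 mice that were 8 weeks old when adeno-associated virus (AAV) vectors were injected into the muscle, and every muscle received the vector AAV:TET. The EV muscles also received AAV:MCS, an empty vector, and were kept on normal chow. The EV_DOX muscles received the same pair and were given chow with doxycycline at 600 mg/kg. The DUX muscles received AAV:TET with AAV:Dux and normal chow, so that the transgene was present without its inducer. The DUX_DOX muscles received AAV:TET with AAV:Dux and doxycycline chow. Feeding began 7 days after injection and lasted 2 or 7 days; which of these, which vector dose and which promoter apply to these libraries is not given in the sources used here. Per the protocol the opposite limb of a mouse carried the other vector, and the labels do not say whether libraries came from separate animals, so p-values measure the spread between libraries.

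Dystrophin lies under the fibre membrane and ties cortical actin to beta-dystroglycan, while alpha-dystroglycan outside the membrane binds laminin through its sugar chains. The sarcoglycans and sarcospan brace dystroglycan within the membrane, and alpha-dystrobrevin and the syntrophins bind dystrophin on the inside and hold signalling proteins there. The complex protects fibres from damage during contraction; loss of dystrophin causes Duchenne muscular dystrophy, and loss of alpha-, beta- or delta-sarcoglycan causes limb girdle dystrophies.

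Library totals ran from 11880593 to 13811999 counts. AW822073, a transcript annotated beside Dux, had 143 counts in the DUX_DOX libraries together, 3 in DUX, 1 in EV_DOX and 0 in EV (Dux itself: not analysed here). All 13 fast fibre markers, among them Ckm, Acta1 and Myh4, were present in every library. Their presence cannot tell tibialis anterior from another fast muscle. DUX_DOX libraries carried less fast fibre marker RNA, with summed levels of 157200 to 176100 CPM (counts scaled to library size) against 189700 to 206900 in EV_DOX. They also carried more macrophage marker RNA, with 326.9 to 480.4 CPM against 128.3 to 187.7. In whole muscle, fewer cells of a type and less RNA per cell cannot be told apart.

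Promoter windows are shown for Dmd, Sgca and Sspn, 3 of the 4 genes that fell together in both comparisons with DUX_DOX below. They are RefSeq windows on GRCm38.p6, from 250 bases before to 50 after an annotated start, printed 5′ to 3′ on the strand of the gene. Capitals mark a CArG box in Dmd, the core of serum response factor sites, and E-boxes (CANNTG), the core of sites for myogenic factors, in Sgca and the second Sspn window.
Dmd, chrX:82948620-82948919, plus strand: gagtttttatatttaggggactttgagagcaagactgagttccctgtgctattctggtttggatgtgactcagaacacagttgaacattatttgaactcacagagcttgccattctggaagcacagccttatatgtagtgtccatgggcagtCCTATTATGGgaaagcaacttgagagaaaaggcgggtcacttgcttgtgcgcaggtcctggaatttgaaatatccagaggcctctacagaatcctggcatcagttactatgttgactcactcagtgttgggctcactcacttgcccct
Sgca, chr11:94976278-94976577, minus strand: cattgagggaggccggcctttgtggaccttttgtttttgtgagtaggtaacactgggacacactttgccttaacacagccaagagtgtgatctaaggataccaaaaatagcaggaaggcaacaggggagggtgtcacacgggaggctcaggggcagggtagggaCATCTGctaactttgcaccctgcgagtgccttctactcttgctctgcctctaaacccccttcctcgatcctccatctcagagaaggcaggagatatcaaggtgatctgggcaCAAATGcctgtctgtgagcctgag
Sspn window 1, chr6:145931623-145931922, plus strand: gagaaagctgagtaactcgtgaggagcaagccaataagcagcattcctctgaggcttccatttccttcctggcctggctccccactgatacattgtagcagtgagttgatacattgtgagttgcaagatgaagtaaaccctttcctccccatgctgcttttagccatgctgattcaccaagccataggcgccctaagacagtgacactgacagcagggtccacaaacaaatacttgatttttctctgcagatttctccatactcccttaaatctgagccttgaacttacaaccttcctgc
Sspn window 2, chr6:145933872-145934171, plus strand: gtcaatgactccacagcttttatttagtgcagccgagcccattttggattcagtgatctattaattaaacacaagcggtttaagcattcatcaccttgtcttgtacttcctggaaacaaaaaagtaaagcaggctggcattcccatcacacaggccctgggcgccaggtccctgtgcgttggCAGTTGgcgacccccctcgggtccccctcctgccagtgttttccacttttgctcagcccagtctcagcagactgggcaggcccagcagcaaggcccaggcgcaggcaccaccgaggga
The Dmd window shown held the CArG box from base -98 to -89 before the start, and also a match to a MEF2 site from -244 to -235 and 3 E-boxes. The Sgca window held E-boxes at -86 and at 27, and Sspn window 2 held 1 at -68, while Sspn window 1 held no match. A second Dmd window, chrX:85048045-85048344, which is not shown, held no match either. Both strands were searched in all 10 windows found for 7 of the 8 genes, and no matches to different motifs overlapped. Of the 32851 mouse windows of this length, 72.3% held an E-box, 1.63% a CArG box and 3.19% a MEF2 site. The Utrn window held 7 E-boxes and that of Sgcd 2, the overlapping pair of Dag1 windows shared 1 and the Sgcb window held none. A match is a description of the letters, and counts per gene cannot tell which start was used.

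Per kilobase of its longest transcript, Sgca was the most abundant of these genes in EV muscle, at 111.3 CPM per kb (SD 6.9, n = 3). Dag1 followed with 50.2 (SD 2.18), then Sgcb with 43.4 (SD 2.90), Sspn with 28.8 (SD 2.61) and Dtna with 17.3 (SD 0.481) CPM per kb. Dmd stood at 10.4 CPM per kb (SD 0.916), and Sgcd at 4.71 (SD 1.1) and Utrn at 3.71 (SD 0.388) were lowest, with the Utrn mean inside the spread of Sgcd. In DUX_DOX the order was the same from Sgca at 90.2 down to Dmd at 6.59 CPM per kb, and Utrn at 3.04 stood above Sgcd at 1.98. The order depends on the length used, since over all annotated exons Dmd and Dtna lay side by side in EV, at 6.52 and 6.43 CPM per kb. Across the 12 libraries the coefficient of variation ran from 6.95% for Dag1 to 18.1% for Dmd, with Sgcd apart at 43.3%.

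**Figure D1:**
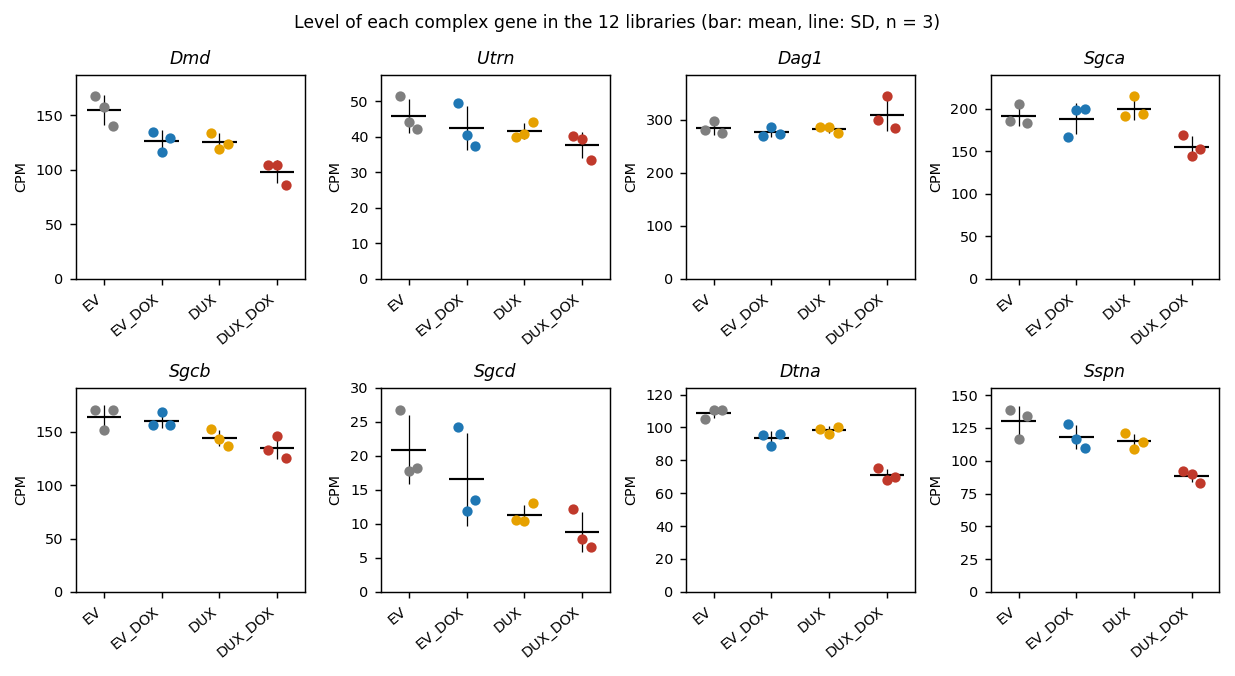
CPM (vertical axes, from 0) of the 8 complex genes in each of the 12 libraries, by group; points are libraries, bars means and lines SD. Dmd, Dtna and Sspn are lowest in all 3 DUX_DOX libraries, Dag1 is not, and Sgcd is spread widely in EV and EV_DOX.

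The comparison of DUX_DOX with EV_DOX asks what the induced transgene changes when both muscles are on doxycycline. Dmd, Sgca, Sgcb, Sgcd, Dtna and Sspn fell and none of the 8 rose, by edgeR's quasi-likelihood test with Benjamini-Hochberg adjustment over 12751 genes. The falls were modest, from 15.9% for Sgcb to 25.4% for Sspn, apart from Sgcd with 46.8%. Dag1 and Utrn did not pass the test. Over all genes tested 25.3% changed, 14.9% rose and 10.3% fell. The median log2 difference was -0.322 over the 8 genes and -0.00533 over all genes.

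The comparison of DUX_DOX with DUX asks what doxycycline adds where the transgene is present in both. Here Dmd, Sgca, Dtna and Sspn fell and none of the 8 rose, against 29.6% of all genes changed, 16.5% higher and 13.1% lower. The median log2 difference was -0.36 over the 8 genes and 0.0123 over all genes. Both comparisons use the same DUX_DOX libraries, so they are not independent of each other. In the uninduced comparisons, DUX with EV and EV_DOX with EV, none of the 8 passed the test.

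**Figure D2:**
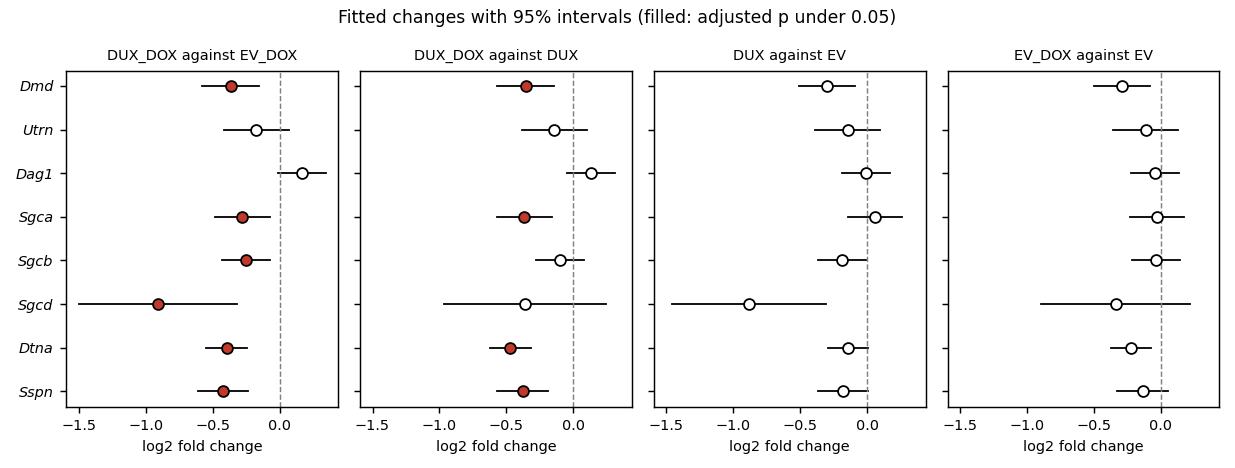
Log2 fold change (horizontal axes) of the 8 complex genes in 4 comparisons; circles are edgeR estimates, lines 95% intervals, and filled circles have an adjusted p under 0.05. Filled circles number 6 against EV_DOX and 4 against DUX, all to the left of 0, and none in the comparisons without induced Dux.

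Dmd, on chromosome X from 82948870 to 85206141 (GRCm38, plus strand, ENSMUSG00000045103), encodes dystrophin and spans 2257.3 kb. Its level was 167.5, 157 and 140.5 CPM in the EV libraries, 135, 116 and 129 in EV_DOX, 134, 119 and 124 in DUX, and 104, 104 and 86.3 in DUX_DOX. EV held the 3 highest values and DUX_DOX the 3 lowest, with EV_DOX and DUX between them. Against EV_DOX the log2 fold change was -0.37 (SE 0.0984, adjusted p = 0.0146, n = 3 per group, edgeR), and against DUX it was -0.36 (SE 0.0984, adjusted p = 0.0148). In both comparisons all 3 DUX_DOX libraries lay below every control library, as did 17.3% and 22.6% of all genes. Without the third DUX_DOX library the fold change against EV_DOX was -0.28 and the adjusted p 0.071, and the call against DUX was also lost (adjusted p = 0.0704). It was lost against DUX without the first DUX library as well (adjusted p = 0.0673).

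Dmd was also lower without induced Dux, although it did not pass the test there. In DUX against EV its log2 fold change was -0.30 (SE 0.0978, adjusted p = 0.215, unadjusted p = 0.00794, edgeR). In EV_DOX against EV it was -0.29 (SE 0.0978, adjusted p = 0.528, unadjusted p = 0.00989). Both groups lay below all 3 EV libraries, as did 11.6% of genes in DUX and 6.45% in EV_DOX. The EV libraries serve as controls in both of these comparisons.

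Long transcripts as a class had lower levels in the same comparisons. Dmd has a longest annotated transcript of 14910 bases, and the 139 genes over 12 kb had a median log2 difference of -0.257 in DUX against EV, whereas the 585 genes under 1 kb had 0.227. In EV_DOX against EV these medians were -0.163 and 0.131. In DUX_DOX the class over 12 kb stood at -0.189 against EV_DOX, with 29 genes lower and 8 higher, and at -0.113 against DUX. Per library, the median deviation of genes over 12 kb minus that of genes under 1 kb was 0.124 to 0.494 in EV, -0.228 to 0.343 in EV_DOX, -0.200 to -0.124 in DUX and -0.416 to 0.0651 in DUX_DOX, and the third DUX_DOX library was lowest. With transcript length as an offset in the fit, Dmd changed by -0.04 in DUX against EV (adjusted p = 0.894). Against EV_DOX it then changed by -0.21 and lost the call (adjusted p = 0.081), while against DUX it kept it with -0.28 (adjusted p = 0.0206).

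**Figure D3:**
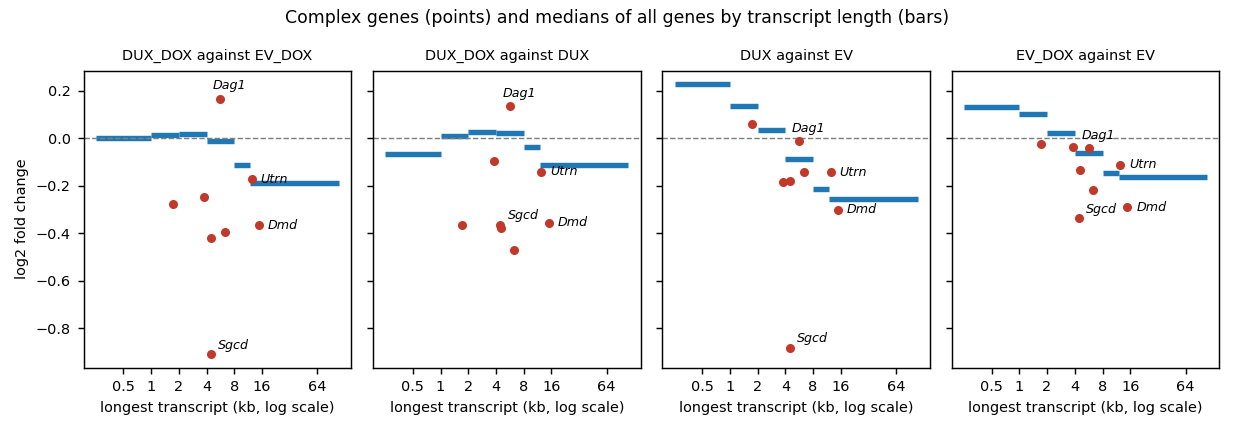
Log2 fold change against the longest transcript (kb, log axis) in 4 comparisons; blue bars are medians of all genes in 6 length classes and red points the 8 complex genes, of which 4 are named. In DUX against EV the bars fall from 0.227 to -0.257 and Dmd lies near the bar of its class, while most points in the induced comparisons lie below theirs.

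Utrn, on chromosome 10 from 12382188 to 12869365 (minus strand, ENSMUSG00000019820), encodes utrophin, a relative of dystrophin that can take its place and in adult fibres is concentrated at neuromuscular junctions. It had 51.3, 44.2 and 42.2 CPM in EV, 49.3, 40.5 and 37.5 in EV_DOX, 39.8, 40.8 and 44.1 in DUX, and 40.3, 39.3 and 33.3 in DUX_DOX. The groups overlapped in every comparison. Its log2 fold change was -0.17 against EV_DOX (95% interval -0.417 to 0.0702, adjusted p = 0.284, edgeR) and -0.14 against DUX (-0.386 to 0.102, adjusted p = 0.372). Both intervals include the fitted change of Dmd, and the difference between the pair was not tested.

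Dag1, on chromosome 9 from 108204634 to 108263958 (minus strand, ENSMUSG00000039952), encodes alpha- and beta-dystroglycan as a single precursor. Its level was 281, 298 and 274 CPM in EV, 269.7, 286 and 273 in EV_DOX, 287, 286 and 274.5 in DUX, and 299.9, 344 and 285 in DUX_DOX. The second DUX_DOX library stood highest and the groups overlapped. It was the one gene of the 8 whose fitted difference was above 0 in the induced comparisons, with 0.17 against EV_DOX (95% interval -0.012 to 0.345, adjusted p = 0.16, edgeR) and 0.13 against DUX (adjusted p = 0.242). In DUX against EV it differed by -0.01 (adjusted p = 0.96).

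Sgca, on chromosome 11 from 94962791 to 94976327 (minus strand, ENSMUSG00000001508), encodes alpha-sarcoglycan, which is made mainly in striated muscle. It had 186, 206 and 184 CPM in EV, 167, 198 and 199.7 in EV_DOX, 192, 215 and 194 in DUX, and 169, 144 and 153 in DUX_DOX. The first DUX_DOX library overlapped the first EV_DOX library, and all 3 DUX_DOX libraries lay below DUX, as for 22.6% of all genes. The fall was -0.37 on the log2 scale against DUX (SE 0.0943, adjusted p = 0.0102, edgeR) and -0.28 against EV_DOX (SE 0.0943, adjusted p = 0.0441). The call against EV_DOX was lost in 11 of 21 alternatives (adjusted p from 0.011 to 0.138), and that against DUX only without the second DUX library (adjusted p = 0.0514). Without induction Sgca showed little difference, with 0.06 in DUX against EV and -0.03 in EV_DOX against EV.

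Sgcb, on chromosome 5 from 73632749 to 73647790 (minus strand, ENSMUSG00000029156), encodes beta-sarcoglycan. It had 171, 152 and 171 CPM in EV, 156, 168 and 157 in EV_DOX, 153, 144 and 137 in DUX, and 133, 146 and 125 in DUX_DOX. DUX_DOX lay below EV_DOX without overlap, as it did for 17.3% of all genes, but overlapped DUX. The log2 fold change was -0.25 against EV_DOX (SE 0.0833, adjusted p = 0.0414, edgeR) and -0.10 against DUX (adjusted p = 0.402). The first call was lost in 10 of 21 alternatives (adjusted p from 0.0139 to 0.151). In DUX against EV the difference was -0.19 (adjusted p = 0.298).

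Sgcd, on chromosome 11 from 46896253 to 47988969 (minus strand, ENSMUSG00000020354), encodes delta-sarcoglycan, which also takes part in the sarcoglycan complex of smooth muscle. It had 26.8, 17.8 and 18.3 CPM in EV, 24.3, 11.85 and 13.5 in EV_DOX, 10.5, 10.5 and 13.1 in DUX, and 12.2, 7.72 and 6.57 in DUX_DOX. The first EV and the first EV_DOX library stood far above the others, and DUX_DOX overlapped both EV_DOX and DUX. Its log2 fold change against EV_DOX was -0.91 (SE 0.275, 95% interval -1.50 to -0.319, adjusted p = 0.0262, edgeR), the largest of the 8 and the one with the widest interval. Without the first EV_DOX library it was -0.52 and the call was lost (adjusted p = 0.128), as it was without the second or the third DUX_DOX library (adjusted p = 0.0889 and 0.116). The call was also lost when only the groups compared were fitted (adjusted p = 0.0529, edgeR).

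Against DUX, Sgcd differed by -0.36 (95% interval -0.969 to 0.241, adjusted p = 0.355, edgeR), and in DUX against EV by -0.88 (SE 0.267, adjusted p = 0.206, unadjusted p = 0.00519). All 3 DUX libraries lay below all 3 EV libraries, as for 11.6% of all genes. Markers of other cell types also stood apart in these libraries. The summed level of 7 tenocyte markers was 912.2 CPM in the first EV_DOX library against 197.5 and 127.9 in the others. It was 292.1, 177.4 and 995.2 in EV, 105.3 to 174.8 in DUX and 303.7 to 441.7 in DUX_DOX. The 7 tenocyte markers differed, with 1 called higher in DUX_DOX against EV_DOX (median log2 difference -1.19) and 1 against DUX (median 0.645). Tnc had 79.2 to 131.8 CPM in DUX_DOX against 3.54 to 6.72 in DUX, and Tnmd 5.64 to 7.50 against 3.69 to 5.38. The 12 fibroblast markers summed to 3694, 2773 and 1339 CPM in EV_DOX, to 3095, 1761 and 3843 in EV to 1852, 2022 and 2564 in DUX and to 2236, 2825 and 3070 in DUX_DOX, where Sgcd was lowest. No marker of either list was at 0 in any library, and their part in the Sgcd result was not tested. The 11 smooth muscle markers summed to 1017 to 1185 CPM in EV_DOX and 959.6 to 1018 in DUX_DOX, but they differed among themselves. Against EV_DOX 1 of them rose and 1 fell, with a median log2 difference of 0.0605. Abcc9 had 204.1 to 266.7 CPM in DUX_DOX against 329.7 to 369.8 in EV_DOX, whereas Acta2 had 55.2 to 64.7 against 33.9 to 52.0.

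Sspn, on chromosome 6 from 145931641 to 145965223 (plus strand, ENSMUSG00000030255), encodes sarcospan, the small membrane protein that joins the sarcoglycans. It had 139, 117 and 134 CPM in EV, 128, 117 and 109.6 in EV_DOX, 121, 109 and 114 in DUX, and 91.9, 89.7 and 82.9 in DUX_DOX. All 3 DUX_DOX libraries lay below the other 9, where 17.3% of all genes lay below EV_DOX and 22.6% below DUX without overlap. The fall was -0.42 on the log2 scale against EV_DOX (SE 0.0886, adjusted p = 0.00322, edgeR) and -0.38 against DUX (SE 0.0886, adjusted p = 0.00563). Both calls held in all 21 alternatives (adjusted p up to 0.019 and 0.0294). An antisense gene, Sspnos, overlaps 1.38% of its exon bases; strand use in counting is not given in the sources used here.

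Dtna, on chromosome 18 from 23415135 to 23659715 (plus strand, ENSMUSG00000024302), encodes alpha-dystrobrevin, which binds dystrophin and syntrophins inside the membrane. It had 105, 110.4 and 111 CPM in EV, 95.5, 88.6 and 96.1 in EV_DOX, 98.8, 96.2 and 100.4 in DUX, and 75.3, 68.2 and 69.6 in DUX_DOX. The groups fell into 3 tiers, with EV on top and DUX and EV_DOX in the middle. DUX_DOX was lowest, below EV_DOX as for 17.3% of all genes and below DUX as for 22.6%. The log2 fold change of Dtna was -0.40 against EV_DOX (SE 0.0707, adjusted p = 0.00108, edgeR) and -0.47 against DUX (SE 0.0706, adjusted p = 0.000249), the smallest adjusted p of the 8 in each. Both calls held in all 21 alternatives (adjusted p up to 0.0122 and 0.00196). In EV_DOX against EV it differed by -0.22 (SE 0.0701, adjusted p = 0.49, unadjusted p = 0.00703, edgeR), with no overlap, as for 6.45% of all genes. Gm47898, on the opposite strand, overlaps 0.532% of its exon bases.

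**Figure D4:**
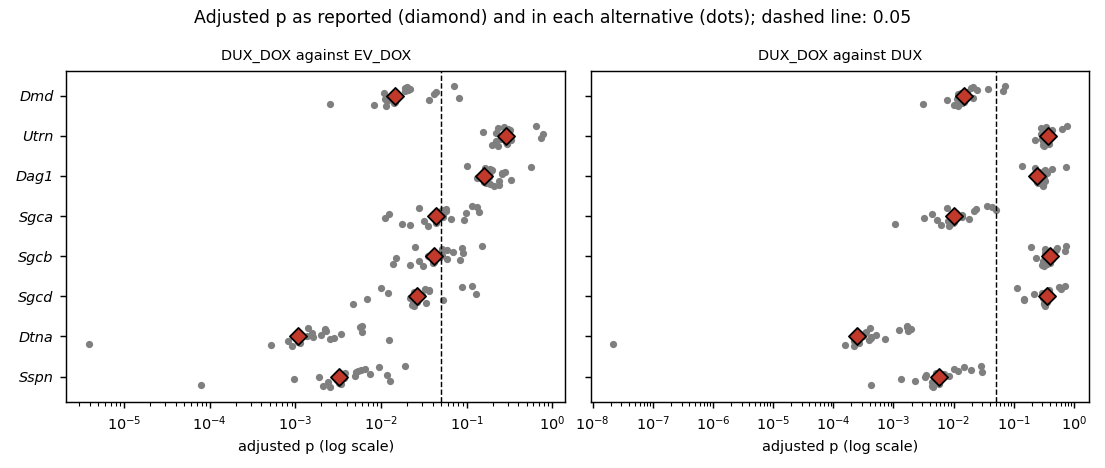
Adjusted p (log axis) of the 8 complex genes against EV_DOX (left) and against DUX (right); diamonds are the reported fit, grey dots alternatives and the dashed line 0.05. Dtna and Sspn stay left of the line in all 21 alternatives of both comparisons, and Sgca and Sgcb straddle it against EV_DOX.

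Where the chow comparison itself was set against vector, none of the 8 genes passed the interaction test, which called 10.4% of all genes. The fitted interaction is the log2 effect of doxycycline in Dux muscle minus that in empty-vector muscle. The largest were Sgca with -0.34 (SE 0.133, adjusted p = 0.116, unadjusted p = 0.0232, edgeR) and Dtna with -0.25 (SE 0.0994, adjusted p = 0.12, unadjusted p = 0.0244). Without the first EV_DOX library Sgca passed with -0.42 (adjusted p = 0.0349). For Dmd the interaction was -0.06 (adjusted p = 0.812). The falls on doxycycline in Dux muscle were thus not shown to exceed the differences on doxycycline in empty-vector muscle.

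In the uninduced comparison of DUX with EV, no gene of the whole table passed the edgeR test, where 2012 had an unadjusted p under 0.05. limma-voom called 0 and DESeq2 115, none of them among the 8. The median log2 difference was -0.162 over the 8 genes and 0.00107 over all. In EV_DOX against EV 5 genes (0.0392%) passed, none of them among the 8, with 999 at an unadjusted p under 0.05. The largest estimate among the 8 there was -0.34 for Sgcd (adjusted p = 0.764). Sspn stood at -0.18 in DUX against EV (adjusted p = 0.339) and -0.14 in EV_DOX against EV (adjusted p = 0.721).

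Fast fibre marker RNA was also lower in DUX_DOX, and its part in the results for the complex was not tested. The summed fast fibre markers in DUX_DOX were 0.818 times those in EV_DOX and 0.825 times those in DUX. Of the 13 markers 4, Actn3, Mybpc2, Pvalb and Atp2a1, passed as lower against EV_DOX, beside 10.3% of all genes. Against DUX 2 of the 13 passed as lower, beside 13.1% of all genes, and none rose in either comparison. Set per 10000 CPM of these markers, a ratio chosen after the levels were seen, Dmd was 0.946, Sspn 0.91, Dtna 0.929, Sgca 1.01, Sgcb 1.03, Utrn 1.08 and Sgcd 0.637 times its EV_DOX level, and the groups overlapped. Dag1 was 1.38 times its EV_DOX level on this ratio and 1.33 times its DUX level, with no overlap in either. On the same ratio 44.2% of all genes lay above EV_DOX and 46.6% above DUX without overlap, so Dag1 did not stand apart. Sgcb lay above DUX and Dtna, at 0.872 times its DUX level, lay below it, both with no overlap; 6.55% of all genes lay below DUX and 3.43% below EV_DOX without overlap. Of 18 macrophage markers 16 rose against EV_DOX, as did 5 of 11 satellite cell and regeneration markers, and none of either list fell. Members of the second list differed. Myod1 had 34.0 to 38.9 CPM in DUX_DOX against 23.5 to 31.8 in EV_DOX, whereas the satellite cell marker Pax7 had 2.67 to 5.51 against 4.34 to 5.18. The part of both lists in the results for the complex was not tested.

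Other components that bind the complex moved both ways. Of 13 measured subunits and bound proteins, 2 rose and 3 fell against EV_DOX, beside 14.9% and 10.3% of all genes. The median log2 difference of the 13 was 0.0405. Aqp4, the water channel anchored by syntrophin, fell from 44.9 to 20.1 CPM (log2 fold change -1.16, SE 0.115, adjusted p = 5.95e-06, edgeR). Nos1, the neuronal nitric oxide synthase held at the membrane by the complex, fell from 183 to 114 CPM (-0.69, SE 0.163, adjusted p = 0.00718). Sntb1, beta1-syntrophin, rose from 2.92 to 7.33 CPM (1.32, SE 0.234, adjusted p = 0.00103). Grb2, an adaptor that binds beta-dystroglycan, also rose (0.335, adjusted p = 0.0105), a call lost without the second DUX_DOX library (adjusted p = 0.0544). Against DUX 3 of the 13 rose (Sntb1, Sntb2 and Grb2) and 4 fell, Aqp4 and Nos1 among them, beside 16.5% and 13.1% of all genes. Aqp4 was again lowest in DUX_DOX (-1.75, adjusted p = 1.17e-07, edgeR). The call of Sntb2 was lost without the first or second DUX library or the second or the third DUX_DOX library (adjusted p from 0.0846 to 0.118).

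Of 18 genes for dystroglycan glycosylation, 2 rose and 2 fell against EV_DOX (median -0.0784), beside 14.9% and 10.3% of all genes. B3galnt2, which adds the N-acetylgalactosamine of the laminin-binding glycan, fell from 79.8 to 55.5 CPM (-0.52, SE 0.0795, adjusted p = 0.000292, edgeR), and Pomgnt2, which acts just before it, fell from 17.1 to 11.9 CPM (-0.53, SE 0.119, adjusted p = 0.0051). Large, which extends the laminin-binding repeat, rose from 21.8 to 32.9 CPM (0.59, SE 0.111, adjusted p = 0.00147), as did Dpm2 of dolichol-phosphate mannose synthesis (0.44, adjusted p = 0.0262). The call of Dpm2 was lost without the first EV_DOX or the second or the third DUX_DOX library (adjusted p from 0.0767 to 0.092). Dpm2 also lost it when only the groups compared were fitted (adjusted p = 0.0668, edgeR). Against DUX 4 rose (Large, Dpm2, Pomgnt1 and Gmppb) and 1, B3galnt2, fell (-0.56, adjusted p = 0.000161, edgeR), beside 16.5% and 13.1% of all genes. Leaving out a DUX library gave 1 to 3 calls in this list, leaving out the third DUX_DOX library 2, and leaving out the second 1 higher and 3 lower.

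Of 16 matrix ligands and basement membrane genes, 1 rose against EV_DOX and none fell (median 0.0252), beside 14.9% and 10.3% of all genes. The gene that rose was Bgn, biglycan, which binds dystroglycan and sarcoglycans, with 94.2 CPM in EV_DOX and 197 in DUX_DOX (1.07, SE 0.274, adjusted p = 0.0114, edgeR). Its call was lost without the third DUX_DOX library (adjusted p = 0.0614), which left 0 calls in the list. Without the first EV_DOX library 4 of the 16 rose, and without the second 1 rose and 2, Lama5 and Lamb2, fell. Lama5 stood at -0.34 (adjusted p = 0.114) and Lamb2 at -0.21 (adjusted p = 0.174).

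The parallel integrin linkage and the cortical cytoskeleton also changed in both directions. Over all genes 14.9% rose and 10.3% fell against EV_DOX. Of 15 integrin and talin genes 4 rose and 2 fell against EV_DOX (median 0.103). Itga5, the fibronectin receptor subunit, rose from 17.4 to 61.7 CPM (1.83, SE 0.133, adjusted p = 2.89e-07, edgeR). The focal adhesion proteins Zyx and Vcl rose by 1.03 and 0.79 on the log2 scale (adjusted p = 3.25e-06 and 2.69e-05). Itgb1, the shared beta1 chain, was the other to rise (0.51), and Tln2 and Itgb1bp2 (melusin) fell (-0.43 and -0.49). Of 17 subsarcolemmal and costamere genes 7 rose and 4 fell (median -0.0568). Flnc, filamin C, which binds sarcoglycans and Z-discs, rose from 693 to 5440 CPM (2.97, SE 0.19, adjusted p = 8.42e-08). Csrp3, a muscle LIM protein, rose from 12.6 to 611 CPM (5.59, adjusted p = 8.57e-07), and Actb rose by 0.72 (adjusted p = 4.04e-05). The 4 that fell were the ankyrin genes Ank1, Ank2 and Ank3 and the intermediate filament gene Synm, from -0.38 to -0.47. The calls of Ank1, Ank2 and Synm were lost without the third DUX_DOX library (adjusted p = 0.0964, 0.123 and 0.0564), those of Ank1 and Ank2 also without the second, that of Ank1 without the second EV_DOX library and that of Ank2 without the first or the third. With the transcript length offset Ank1 (adjusted p = 0.08, edgeR) and Ank2 (adjusted p = 0.123) lost their calls. Ank1 also lost its call when only the groups compared were fitted (adjusted p = 0.0634). Without the third DUX_DOX library 6 of the 17 rose and 1 fell.

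Of 17 membrane repair and limb girdle dystrophy genes, 8 rose and 1 fell against EV_DOX (median 0.23), beside 14.9% and 10.3% of all genes. Popdc3, a membrane protein of muscle, rose from 25.2 to 55.1 CPM (1.13, SE 0.0956, adjusted p = 1.32e-06, edgeR) and the repair protein Anxa2 from 36 to 113 CPM (1.65, SE 0.165, adjusted p = 6.52e-06), a gene that macrophages and fibroblasts also express. Ano5, which acts in membrane repair, fell from 251 to 158 CPM (-0.67, SE 0.101, adjusted p = 0.000292). In these 6 surrounding lists no gene passed the edgeR test in DUX against EV or in EV_DOX against EV. DESeq2 called 1 bound protein of the complex lower in EV_DOX against EV, and without the second EV library 1 costamere gene was called higher in DUX against EV.

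Profiles over the 12 libraries were compared with those of 9048 genes of at least 5 CPM by the root mean square difference of centred log2 CPM, where a smaller value is a closer profile. Dmd, with a spread of its own of 0.255, was closest to Fam63b (0.0699) and Alg10b (0.0703). Dtna (0.233) was closest to Idh1 (0.0468) and Eef2k (0.0528), and Sspn (0.222) to Plcg1 (0.0614) and Ralgapa1 (0.0656). Sgca (0.168) was closest to Gpi1 (0.0481) and Trip10 (0.0508), and Sgcb (0.136) to Bcas3 (0.0551) and Usp8 (0.0578). Utrn (0.16) was closest to Tjp1 (0.052) and Smc6 (0.0561). Dag1 (0.0906) was closest to Hdlbp (0.047) and Srsf6 (0.0504). Sgcd, with the largest spread of its own (0.577), was closest to Lmbrd2 (0.213) and Alkbh8 (0.244). The difference depends on the spread of a gene, so its size does not rank closeness between genes of unlike spread. No gene of the 8 was among the 2 nearest of another.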

How the data were processed

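RNA from whole tibialis anterior was enriched for poly-A (200 ng, TruSeq, per the labels' protocols). The deposited values are raw counts per gene; bcl2fastq 2.17.1.14, STAR, featureCounts and GRCm38 are named in the submitters' processing notes. The sources used here do not give other settings or a filter on genes; the lowest mean count in the table was 10.0.

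All 12 columns were mapped by name. Of 12752 genes, 12751, all 8 members among them, passed filterByExpr and were fitted together with edgeR 4.0.16 in R 4.3.3 (quasi-likelihood F test, two-sided, 1 mean per group, TMM factors from 0.916 to 1.12), with Benjamini-Hochberg adjustment over all of them and a threshold of 0.05. CPM use TMM-scaled totals; groups hold 3 libraries. The procedure was tested on simulated data. No pair of replicate libraries agreed within sampling noise (chi-square per degree of freedom from 4.89 to 25.9). The interaction compares the chow effect between vectors. Lengths and coordinates came from GENCODE M21 (12723 genes), promoters from RefSeq.

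Alternatives were other scaling factors, limma-voom 3.58.1, DESeq2 1.42.0, other filters, only the groups compared, a replicate block, a transcript length offset and leaving out each library. The members and lists were chosen with earlier results of these data known. All members are named; of each surrounding list, the 3 genes with the smallest p against EV_DOX and 1 in each other comparison with a call. Other genes named (such as Grb2, Dpm2 and the ankyrins) fall outside this rule and were chosen after their values were seen. Some genes counted in the lists are not reported here by name.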

Additional observations from a re-analysis of the deposited data

Results flagged for a closer look

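No gene of the complex met a criterion for a closer look, and groups of 3 were too small for a test of single outlying libraries. Among the surrounding genes named in the report, 14 had a chow effect that differed between Dux and empty-vector muscle by edgeR's interaction test, adjusted over 12751 genes. The test called 10.4% of all genes. Some of the named genes were chosen by this test and others with their results known, so the 14 give no share for the surrounding genes. The values are the log2 effect of doxycycline in Dux muscle minus that in empty-vector muscle. Among proteins bound to the complex, Aqp4 had -1.21 (SE 0.158, adjusted p = 0.000278), with 65.1, 44.9, 67.2 and 20.1 CPM in EV, EV_DOX, DUX and DUX_DOX. Sntb1 had 1.53 (SE 0.333, adjusted p = 0.0105). Among the glycosylation genes Pomgnt2 had -0.59 (SE 0.169, adjusted p = 0.0405), with 13.3, 17.1, 13.8 and 11.9 CPM in the same order. Among the matrix ligands Bgn had 1.39 (SE 0.387, adjusted p = 0.0366). Its call and that of Pomgnt2 were each lost in 9 of 20 alternatives.

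In the integrin linkage the interaction was 1.87 for Itga5 (SE 0.192, adjusted p = 3.65e-05), 0.87 for Zyx (SE 0.136, adjusted p = 0.00112) and 0.82 for Vcl (SE 0.13, adjusted p = 0.00119). It was 0.543 for Itgb1 (SE 0.123, adjusted p = 0.013) and -0.553 for Itgb1bp2 (SE 0.148, adjusted p = 0.0296), and the call of Itgb1bp2 was lost in 9 of 20 alternatives. In the cytoskeleton it was 3.16 for Flnc (SE 0.256, adjusted p = 3.73e-06), 4.52 for Csrp3 (SE 0.594, adjusted p = 0.000294) and 0.77 for Actb (SE 0.122, adjusted p = 0.00122). In the repair list it was 1.04 for Popdc3 (SE 0.137, adjusted p = 0.000294) and 1.82 for Anxa2 (SE 0.234, adjusted p = 0.000254).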

How the results depend on the processing

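Over 21 alternatives, 780 of 832 values of the complex genes kept their direction and their side of the threshold, 30 lost and 1 gained a call, and 21, none of them called, changed sign. Against EV_DOX the 6 genes called became 3 when only the groups compared were fitted, and 2 (Dtna and Sspn, without the third DUX_DOX library) to 6 when single libraries were left out. The interaction called 0 to 1 of the 8 when single libraries were left out. The transcript length offset turned the sign of Utrn (0.101), Dag1 (0.0849) and Sgca (-0.0557) in DUX against EV, and of Utrn (0.0457) and Dag1 (0.027) in EV_DOX against EV. Leaving out single libraries gave ranges across 0 for Dag1 in DUX against EV (-0.0365 to 0.0241), Sgca in EV_DOX against EV (-0.0703 to 0.053) and the interactions of Sgcd (-0.328 to 0.363), Dmd (-0.155 to 0.0209) and Utrn (-0.117 to 0.0943). The cause was not tested. Same-numbered deviations from the group means had correlations from -0.112 to 0.176 between vectors on the same chow and from -0.419 to 0.204 between chows. Correlations of differently numbered deviations ran from -0.273 to 0.214 and from -0.513 to 0.474. Deviations from a mean of 3 libraries depend on each other, so these correlations cannot show whether same-numbered libraries came from the same mouse. With a replicate block 4 genes were called against EV_DOX, as Sgca (adjusted p = 0.0647) and Sgcb (adjusted p = 0.0591) were lost. Over all genes, calls against EV_DOX fell from 3224 to 2109 without the third DUX_DOX library; DUX against EV had 115 by DESeq2, 118 without the second EV library and 1 without the second DUX library. EV_DOX against EV had 0 to 12 in place of 5. The interaction had 2148 without the first EV_DOX library and 813 to 881 without the third EV, the third EV_DOX, any of the DUX or the second DUX_DOX library, in place of 1326, with 67% of its calls higher as reported and 56.9% under upper-quartile factors. Sgcd, the least abundant of the 8 at 6.57 to 26.8 CPM, had the widest interval.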

Other observations

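Utrn was set against Dmd within each library, a ratio chosen after the levels were seen and given with no test. There were 28.1 to 30.7 Utrn counts per 100 Dmd counts in EV, 29.0 to 36.6 in EV_DOX, 29.6 to 35.5 in DUX and 37.6 to 38.7 in DUX_DOX. The 3 DUX_DOX libraries stood above the other 9, but by a narrow gap, from 36.6 in the first EV_DOX library to 37.6. In DUX_DOX these ratios rest on 431 to 550 Utrn counts and 1117 to 1461 Dmd counts. The counting error of the ratio was not estimated, so neither the gap nor the closeness of the 3 can be weighed. Per kilobase of longest transcript, the group means were 35.6 (SD 1.59), 40.3 (SD 4.80), 39.9 (SD 3.73) and 46.1 (SD 0.708) per 100, in the same order. The mean level of Utrn was 45.9 CPM in EV and 37.7 CPM in DUX_DOX, beside 155 and 98.3 CPM for Dmd.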
